A study of Rattus norvegicus with 18 samples.

Results

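The ATP-binding cassette (ABC) genes of the rat kidney were taken as the rows of the gene table whose name is Abc, a subfamily letter from a to g and a number. They were 53 of 32116 rows: 15 of subfamily A, 10 of B, 10 of C, 4 of D, 1 of E, 3 of F and 10 of G. The rule reads names only. The 53 rows carried 52 symbols, because 2 rows were both named Abcb1b and no row was named Abcb1a. Whole kidneys were profiled by RNA sequencing in 18 libraries, 6 in each of 3 groups. NC rats had no treatment. CKD rats were given adenine daily, 100 mg/kg, which injures the tubules of rodent kidneys through crystals of a metabolite. SZ rats were given the same daily adenine together with 300 mg/kg of SZ-A. The labels give no strain, age, sex or length of treatment, and the sources used here do not say what SZ-A is. They also do not say that each library came from a separate rat, so the p-values refer to variation among these libraries, which may be technical.

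ABC proteins bind and split ATP to move substrates across membranes. Subfamilies A and G mainly move lipids and sterols, B and C hold the P-glycoproteins and multidrug resistance proteins that export drugs, conjugates and bile constituents, and D serves peroxisomes and lysosomes. Subfamilies E and F have the ATPase domains without a membrane part and act on ribosomes. In the kidney, exporters in the brush border of the proximal tubule, such as Abcg2, Abcc2, Abcc4 and P-glycoprotein, pass urate, organic anions and drugs from the cell into the urine.

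Recovered reads per library summed to between 15354358 and 18532375. Markers of several cell types differed between the groups. The summed FPKM (fragments per kilobase of gene, scaled to the size of the library) of 8 proximal tubule markers lay between 3655 and 4525 in NC, 802 and 2308 in CKD, and 2313 and 3781 in SZ. That of 8 macrophage markers lay between 103 and 199 in NC, 969 and 2026 in CKD, and 400.01 and 888 in SZ. Markers of the loop of Henle and distal tubule, collecting duct and podocyte were lower in CKD than NC in 5 of 5, 5 of 6 and 4 of 4 tested genes. Their sums overlapped between CKD and SZ, where 0, 2 and 0 of them were called. Kidney markers such as Slc34a1, Umod and Aqp2 were present in the means of all groups, and 2 urothelial markers summed to at most 0.384 in any library. In whole tissue, fewer cells of a type and less RNA per cell cannot be told apart. In CKD 2, CKD 5 and SZ 3 the values fell with gene length, by 0.21, 0.31 and 0.25 on the log2 scale for each doubling of length, against slopes of -0.10 in CKD 1 and 0.011 to 0.11 elsewhere. Abcc1, the multidrug resistance-associated protein 1 gene, had 1.403, 1.94 and 1.797 FPKM in those libraries and from 4.26 to 8.09 in the other 15. Abca7, a longer row (6850 bases against 5014), was lowest of the CKD libraries in CKD 5, at 3.98 FPKM. In SZ 3 it was highest of the SZ libraries, at 8.24 FPKM. A correction for gene length was run as an alternative setting for the calls. Beyond that, the part of gene length in the values of single members was not tested.

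Levels spanned a wide range. Of the 53 members, 14 had a mean of at least 10 FPKM over all libraries, 22 had 1 to 10 and 17 were under 1. The highest was Abcd3, which codes for the main membrane transporter of peroxisomes, with mean FPKM of 107 ± 8.06 in NC, 49.2 ± 19.7 in CKD, and 76.6 ± 12.1 in SZ (mean ± SD, n = 6). Abcg2, the exporter also called breast cancer resistance protein, came next at 91.3 ± 12.99 in NC, 44.5 ± 13.5 in CKD, and 66.4 ± 4.51 in SZ. Abca2 and Abca3 followed, and the 3 subfamily F genes and Abce1 filled most of the next places. Abca5 and Abcg3 were listed at 0 in all 18 libraries. Summed over a subfamily, mean FPKM was 116 in NC and 58.8 in CKD for D, and 115 and 75.9 for G. It was 63.7 in NC and 62.03 in CKD for F. The corresponding SZ sums were 86.4, 94.04 and 64.95. Most of the D sum was Abcd3 and most of the G sum was Abcg2, so these sums do not describe their other members. In NC and CKD the sums were 89.2 and 69.8 for A, 75.5 and 53.1 for B, and 46.3 and 37.1 for C.

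**Figure D1:**
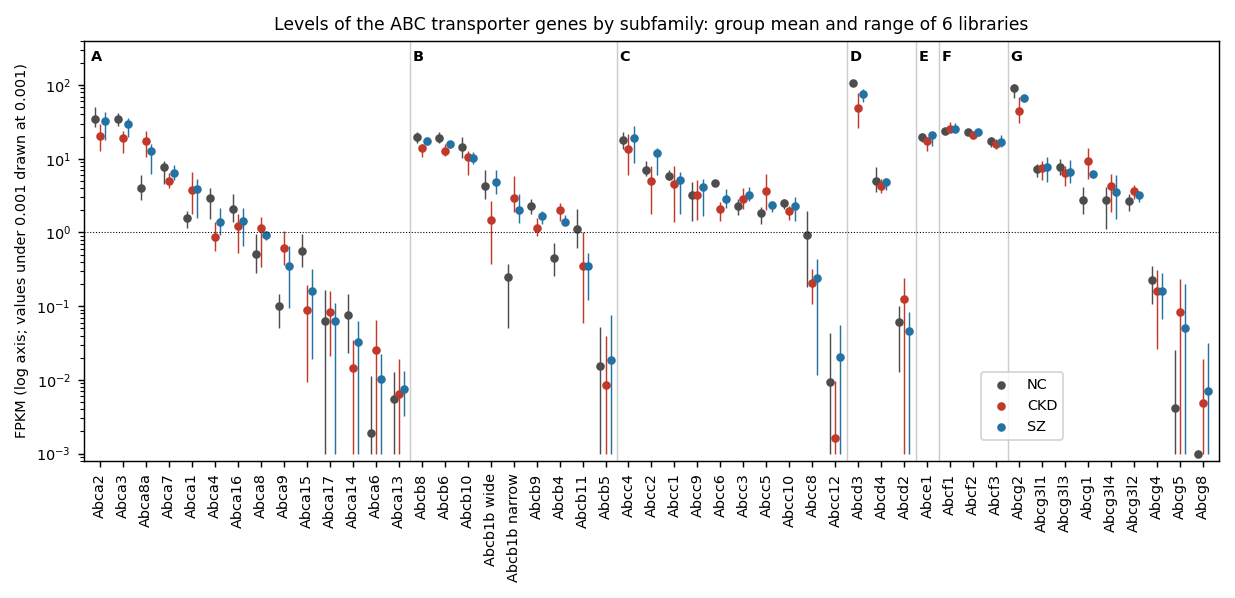
Group mean FPKM (point, log axis) and the range of 6 libraries (bar) for members with any reads (2 are not drawn), by subfamily and in order of level, in NC, CKD and SZ. Abcd3 and Abcg2 are the highest, and the narrow Abcb1b row and Abcb4 are under 1 FPKM in NC and above it in CKD and SZ.

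A member was tested where its FPKM was at least 1 in at least 6 libraries. This kept 37 members, 3 of which (Abca8, Abcb4 and the Abcb1b row with the narrower span) had no NC library at 1 FPKM or more. These 3 passed through CKD and SZ libraries, so a difference from NC was built into their passing; with no low-value filter each was still called in CKD against NC. Fold changes were on the log2(FPKM + 1) scale, which understates the change of low genes, and each adjusted p came from limma with Benjamini-Hochberg adjustment over the 13851 genes tested. A gene was called at an adjusted p under 0.05. Below, 3 values given for a group are its lowest, median and highest library. Counts of partner genes and cell type markers are those of the deposited scale and were not repeated on other scales. They stand beside 24.4% of all genes higher and 26.0% lower in CKD than NC. In SZ against CKD the shares were 4.16% higher and 6.82% lower.

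Most tested ABC genes differed between CKD and NC: 23 of 37 were called (62.2%), beside 50.3% of all genes tested. Of these, 9 were higher, beside 24.4% of all genes, and 14 were lower, beside 26.0%. The 9 include the 3 that passed only through other groups. The members' median log2 change was -0.23, against -0.04 for all genes. The same 9 and 14 passed at an unadjusted p under 0.05, which 56.8% of all genes did. The balance of rises and falls depended on the scaling: on a fixed FPKM sum per library (TPM) 15 were higher and 6 lower, on plain read totals 12 were higher and 8 lower, and the members' median became 0.17 and 0.07. The same rescalings moved the median of all genes to 0.34 and 0.25. Both rescalings moved the medians upward, so they could hardly remove a rise, and all 9 rises being kept in both tests little. The shift worked against the falls. Those of Abca4, the Abcb1b row with the wider span, Abcb9, Abcc6, Abcd3 and Abcg2 were kept in both. The other 8 falls lost their call on the TPM scale, on plain totals or in both. Without CKD 2, CKD 5 and SZ 3, 8 were higher and 12 lower.

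On the deposited scale, calls were uneven across subfamilies. In A, 3 members were higher and 5 lower of 8 tested, and in B, 2 were higher and 6 lower of 8. In C only Abcc5 was higher and Abcc6 lower of 8. In D 1 was higher and 1 lower of 3, in G 2 were higher and 1 lower of 6, and none of the 4 tested members of E and F was called. The pattern depended on the scaling. On the TPM scale, falls in A (Abca2, Abca3, Abca7 and Abca16) and in B (Abcb6, Abcb8 and Abcb10 among them) lost their call. Abcc3, Abcf1, Abcf2, Abcf3, Abcg3l1 and Abcg3l4 became called as higher there. Libraries did not overlap between CKD and NC for 4 members that were higher and 9 that were lower, beside 14.2% and 12.2% of all genes. The 4 include the narrow Abcb1b row and Abcb4, which passed only through other groups.

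**Figure D2:**
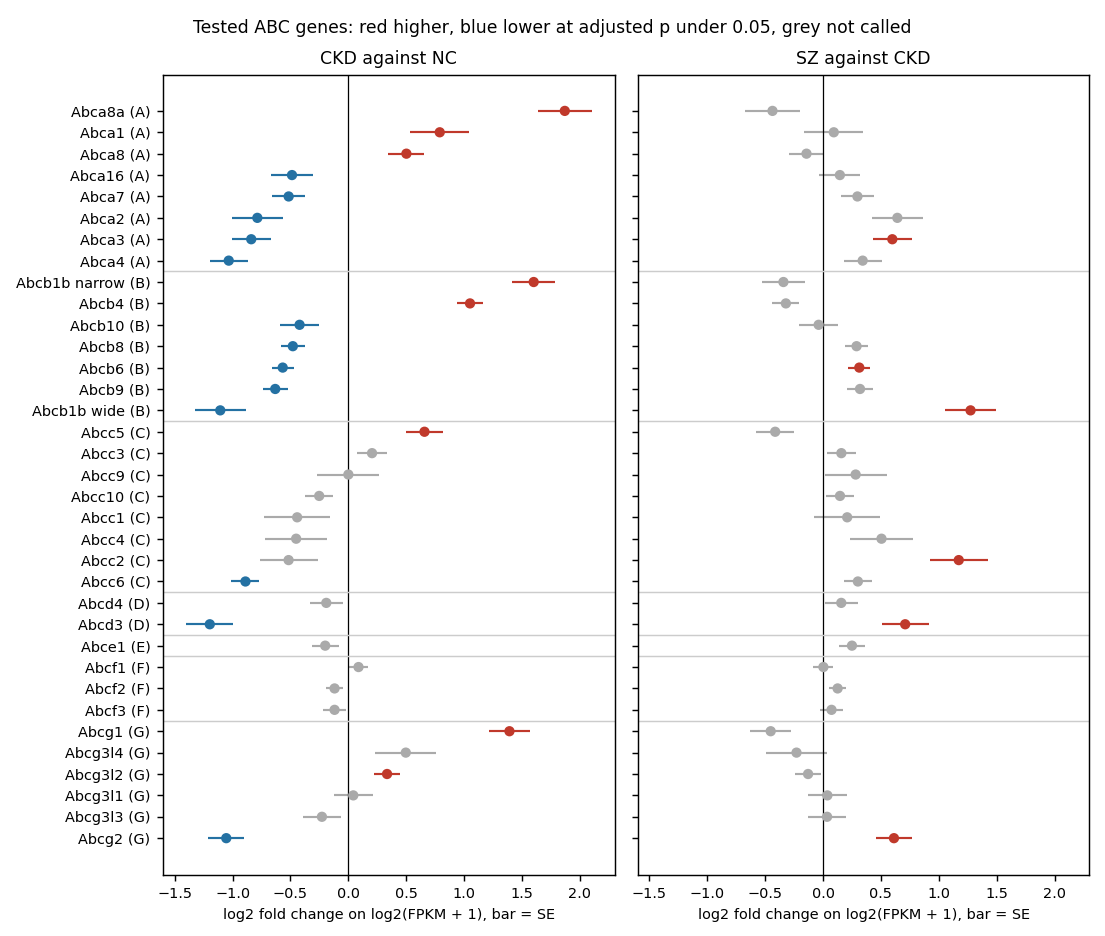
Log2 fold change on the log2(FPKM + 1) scale (point) with its SE (bar) for tested members (2 are not drawn), grouped by subfamily, for CKD minus NC (left) and SZ minus CKD (right). Red points are higher, blue points lower and grey points not called at an adjusted p under 0.05; the 6 called points of SZ minus CKD are all above 0.

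Among the lipid transporters of subfamily A, Abca8a rose furthest. It belongs to a cluster of neighbouring genes on chromosome 10 with Abca8, Abca9 and Abca6. Abca8a had FPKM of 2.77, 3.63 and 6.01 in NC, 10.7, 18.6 and 23.97 in CKD, and 6.31, 14.2 and 16.1 in SZ. Every CKD library was above every NC library, and so was every SZ library. The CKD change was 1.87 (SE 0.24, adjusted p = 4.31e-06), and SZ differed from NC by 1.43 (SE 0.24, adjusted p = 3.01e-04) and from CKD by -0.44 (adjusted p = 0.226), the latter not called. Fibroblast and mural cell markers moved in the same direction: 4 of 8 were higher and 1 lower in CKD, and their mean summed FPKM was 79.4 in the NC group, 200.7 with adenine and 122 with adenine and SZ-A. Their part in the Abca8a values was not tested. Its neighbour Abca8 rose by 0.50 (SE 0.15, adjusted p = 0.0117), from a mean of 0.511 to 1.17 FPKM, with overlapping libraries. Its change was 1.21 when limma's voom was run on the recovered reads. Abca9, too low to be tested, had 0.0502, 0.104 and 0.147 in NC, 0.359, 0.485 and 1.05 in CKD, and 0.0955, 0.323 and 0.655 in SZ, so that CKD and NC libraries did not overlap there either.

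Abca1 exports cholesterol and phospholipid to apolipoprotein A-I and Abcg1 exports cholesterol to high-density lipoprotein; both rose in CKD. Abcg1 had 1.76, 2.78 and 4.104 in NC, 5.29, 8.53 and 13.9 in CKD, and 5.48, 5.99 and 7.003 in SZ. All CKD and all SZ libraries were above all NC libraries, with a change of 1.39 (SE 0.18, adjusted p = 5.71e-06) in CKD against NC and 0.94 (SE 0.18, adjusted p = 0.00115) in SZ against NC. The SZ difference from CKD was -0.45 (adjusted p = 0.104), called only without CKD 1 (adjusted p = 0.0198). Abca1 had means of 1.58 FPKM in NC, 3.83 in CKD and 3.895 in SZ, and its changes were 0.79 (SE 0.25, adjusted p = 0.0150) in CKD against NC and 0.88 (SE 0.25, adjusted p = 0.0196) in SZ against NC. SZ against CKD was not called (0.09, adjusted p = 0.837). The lowest Abca1 values of CKD and SZ were those of the libraries whose values fell with gene length, 1.76 in CKD 2, 1.89 in CKD 5 and 1.57 in SZ 3. Without SZ 5 the call in SZ against NC was lost (adjusted p = 0.0507).

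Of 10 tested cholesterol and lipoprotein partners, 8 rose in CKD and none fell, with a median log2 change of 0.96, and 4 fell in SZ against CKD. Apoe, an apolipoprotein that leaves macrophages with cholesterol, had means of 169 FPKM in NC, 760.5 in CKD and 356 in SZ. Scarb1, a receptor of high-density lipoprotein, had 4.79 FPKM in NC, 13.4 in CKD and 9.29 in SZ. The 8 macrophage markers moved the same way, with 8 rises in CKD and 7 falls in SZ against CKD. Their part in the Abca1 and Abcg1 values was not tested. Of the receptors that induce both genes, Nr1h3 fell by 0.38 (adjusted p = 0.00859) and Nr1h2 changed by 0.18 (adjusted p = 0.199).

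The other 5 tested A members were lower in CKD. Abca3, which loads lipid into lamellar bodies in the lung, had 28.1, 34.3 and 42.04 in NC, 11.9, 21.4 and 23.8 in CKD, and 20.03, 31.2 and 35.8 in SZ. NC and CKD did not overlap, and SZ 3 was the one SZ library inside the CKD range. The change was -0.84 (SE 0.17, adjusted p = 4.37e-04) in CKD against NC and 0.60 (SE 0.17, adjusted p = 0.0300) in SZ against CKD, and SZ against NC was not called (-0.24, adjusted p = 0.328). The SZ call was lost without any one of CKD 2, CKD 5, SZ 1, SZ 2, SZ 4 or SZ 5, at adjusted p between 0.0589 and 0.0815, in both rescalings, with the replicate block (0.0601), in a fit of CKD and SZ alone (0.0811) and with no low-value filter (0.0511). On the TPM scale the fall in CKD was not called either (-0.40, adjusted p = 0.101).

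Abca2, a lysosomal lipid transporter best known from the brain, had 26.6, 32.2 and 49.7 in NC, 12.7, 20.1 and 29.3 in CKD, and 18.01, 36.2 and 43.3 in SZ. Its CKD and NC ranges overlapped and its change was -0.79 (SE 0.22, adjusted p = 0.00578). It was not called on the TPM scale (-0.35, adjusted p = 0.239) or on plain totals (-0.45, adjusted p = 0.0876). SZ against CKD was not called (0.64, adjusted p = 0.0619) except without CKD 6 or SZ 3 (adjusted p up to 0.0363). Abca4, the retinoid transporter of photoreceptors, which the table's annotation classes as a pseudogene, had 1.52, 2.93 and 3.99 in NC, 0.552, 0.814 and 1.41 in CKD, and 0.921, 1.33 and 2.12 in SZ. No CKD library reached the NC range, and the change was -1.03 (SE 0.16, adjusted p = 5.16e-05) in CKD and -0.69 (SE 0.16, adjusted p = 0.00579) in SZ against NC. On recovered reads it was -1.71 in CKD against NC.

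Abca7, which takes part in phagocytosis and lipid handling, fell by 0.52 (SE 0.14, adjusted p = 0.00564) in CKD. Abca16 fell by 0.49 (SE 0.18, adjusted p = 0.0291). Abca7 means were 7.73 FPKM in NC, 5.04 in CKD and 6.43 in SZ and Abca16 means 2.1001 FPKM in NC, 1.21 in CKD and 1.44 in SZ. Neither kept its call on the TPM scale or on plain totals, and Abca7 also lost it after a correction for gene length (-0.36, adjusted p = 0.0707). Abca16 also lost it without NC 2, NC 4, NC 6, CKD 4 or CKD 5, at adjusted p up to 0.0784, and without CKD 2, CKD 5 and SZ 3 together (0.0973). Abca15, the neighbour of Abca16 on chromosome 1, was under the limit for testing, with FPKM of 0.3395, 0.468 and 0.944 in NC, 0.00947, 0.0789 and 0.194 in CKD, and 0.0194, 0.134 and 0.315 in SZ; every NC library was above every CKD library.

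Abcg2 exports urate and many drugs at the brush border. Its FPKM was 66.9, 94.8 and 104 in NC, 30.5, 43.8 and 68.9 in CKD, and 59.9, 66.3 and 72.5 in SZ. CKD 1, at 68.9, was the only CKD library to reach the NC range, whose lowest was NC 4 at 66.9. CKD differed from NC by -1.05 (SE 0.15, adjusted p = 2.12e-05), or -0.61 on the TPM scale, and SZ from CKD by 0.61 (SE 0.15, adjusted p = 0.0194). Without CKD 5 or SZ 4 the latter was not called (adjusted p between 0.0510 and 0.0533), nor was it in a fit of CKD and SZ alone. SZ differed from NC by -0.44 (SE 0.15, adjusted p = 0.0473), a call lost in 20 of 28 alternative settings, among them the removal of any single library except NC 4, CKD 1, CKD 4 or CKD 5 (adjusted p up to 0.0973).

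The Abcg3-like genes are a rodent cluster related to Abcg2 that lies on chromosome 14. Abcg3l2 had 1.93, 2.51 and 3.32 in NC, 2.82, 3.59 and 4.47 in CKD, and 2.61, 3.25 and 3.58 in SZ, with a rise of 0.33 (SE 0.11, adjusted p = 0.0178) in CKD (0.68 on the TPM scale) that was lost without NC 1 (adjusted p = 0.0503). Abcg3l1, Abcg3l3 and Abcg3l4 were not called in any comparison with all libraries on the deposited scale, with CKD changes of 0.04, -0.23 and 0.50. Abcg3l4 was called higher in CKD on the TPM scale (0.83, adjusted p = 0.0084), on plain totals (0.75, adjusted p = 0.0166) and without CKD 4 (adjusted p = 0.0407). Abcg3l1 was called higher in CKD on the TPM scale only (0.44, adjusted p = 0.0433). These copies resemble each other, and how the authors' counting divided shared reads among them is not given, so the split is uncertain. Abcg4 and the sterol exporters Abcg5 and Abcg8 stayed at or under 0.347 FPKM in every library.

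Abcd3, the peroxisomal transporter of long-chain and branched fatty acids, was the most abundant member. It had 96.3, 109 and 116 in NC, 25.96, 48.4 and 78.6 in CKD, and 59.6, 77.5 and 89.3 in SZ, so that NC stood above both other groups without overlap while CKD and SZ overlapped. CKD differed from NC by -1.20 (SE 0.20, adjusted p = 9.34e-05), or -0.75 on the TPM scale. SZ differed from CKD by 0.71 (SE 0.20, adjusted p = 0.0320) and from NC by -0.49 (adjusted p = 0.0938), which was called only without CKD 1 or CKD 5 and in a fit of the 2 groups alone. The SZ rise was lost without any one of CKD 3, CKD 4, CKD 5, SZ 1, SZ 2 or SZ 4 (adjusted p between 0.0569 and 0.0813), with no low-value filter (0.0557) and in a fit of CKD and SZ alone (0.0957). Abcd4, the lysosomal cobalamin transporter, had 3.57, 4.73 and 7.62 in NC, 3.399, 3.997 and 5.34 in CKD, and 3.83, 4.95 and 5.44 in SZ and was called in no comparison (-0.19, adjusted p = 0.275 in CKD against NC).

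Other peroxisomal genes fell with Abcd3. Of 16 tested partners, 12 fell in CKD, beside 26.0% of all genes, and none rose, with a median of -0.62. In SZ against CKD 3 rose, beside 4.16%. Ehhadh, the bifunctional enzyme of peroxisomal beta-oxidation, had means of 173 FPKM in NC, 43.3 in CKD and 98.99 in SZ. Ppara, the receptor that induces it, had 12.7 FPKM in NC, 2.498 in CKD and 7.64 in SZ, a change of -2.08 (adjusted p = 2.30e-04) in CKD and of 1.22 (adjusted p = 0.0488) in SZ against CKD. Of the import receptors, Pex5 changed by -0.58 (adjusted p = 5.05e-04) and Pex19 by -0.19 (adjusted p = 0.0429) in CKD. Of 8 proximal tubule markers, 7 fell in CKD and 6 rose in SZ against CKD, and their part in the Abcd3 values was not tested.

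**Figure D3:**
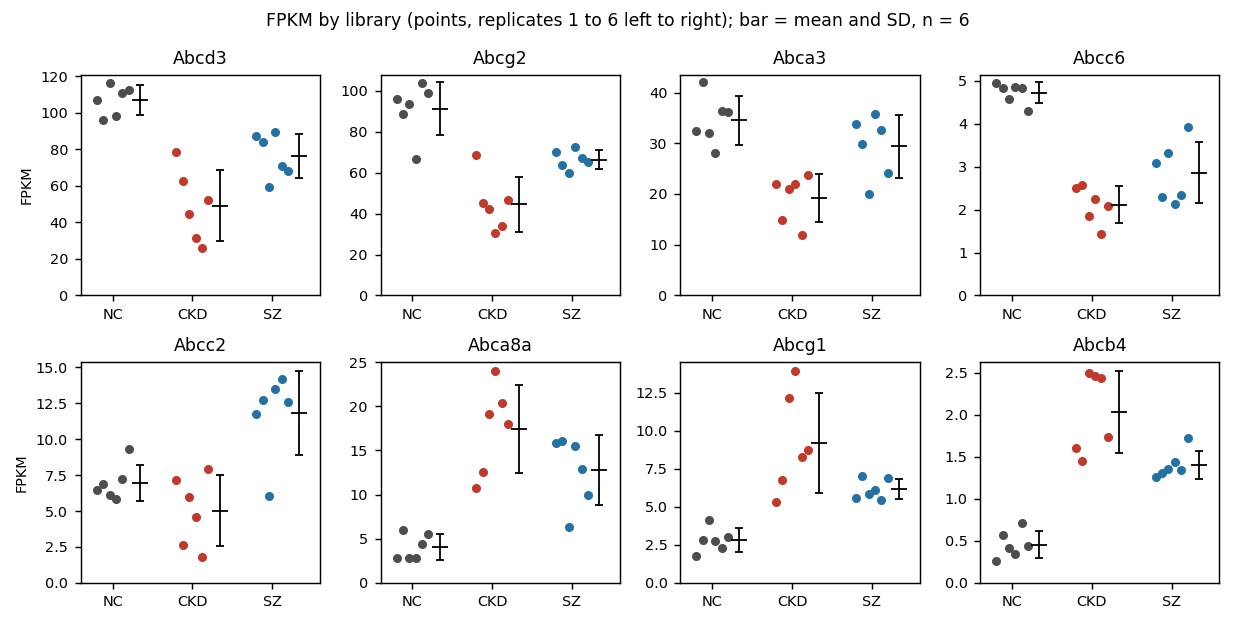
FPKM of 8 members in every library (points in replicate order) with the mean and SD of 6 libraries (bar) in NC, CKD and SZ. The upper row shows members with lower values in CKD than NC, of which Abcd3, Abca3 and Abcc6 have no overlap between CKD and NC. In the lower row Abcc2 is highest in SZ with SZ 3 apart at 6.07. Abca8a, Abcg1 and Abcb4 are higher in all CKD and SZ libraries than in NC.

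The mitochondrial transporters Abcb6, Abcb8 and Abcb10 of subfamily B were lower in CKD on the deposited scale, but none of these 3 was called on the TPM scale. Abcb6, which carries porphyrins, had 16.4, 18.9 and 22.9 in NC, 11.1, 12.4 and 15.8 in CKD, and 13.9, 16.01 and 17.5 in SZ. NC and CKD did not overlap, the change was -0.57 (SE 0.10, adjusted p = 9.14e-05) in CKD, and SZ exceeded CKD by 0.31 (SE 0.10, adjusted p = 0.0426). That call was lost without any of 12 single libraries (NC 1, NC 3, NC 4, CKD 2 to CKD 6, SZ 1, SZ 2, SZ 4 and SZ 5, adjusted p up to 0.0969) and without CKD 2, CKD 5 and SZ 3 together (0.123). It was also lost in both rescalings (0.290 and 0.139), in a fit of CKD and SZ alone (0.0894) and with the replicate block (0.0729). Abcb8, a subunit of the ATP-sensitive potassium channel of mitochondria, had 16.2, 20.2 and 23.1 in NC, 10.7, 14.5 and 16.1 in CKD, and 15.5, 17.3 and 19.9 in SZ. It also showed no overlap, with a change of -0.48 (SE 0.10, adjusted p = 7.27e-04) in CKD and a difference of 0.29 (adjusted p = 0.0695) between SZ and CKD that was called only without CKD 1 or after a correction for gene length.

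Abcb10, needed for heme synthesis, had means of 14.5 FPKM in NC, 10.6 in CKD and 10.1 in SZ, and its change of -0.42 (SE 0.17, adjusted p = 0.0445) lost its call in 15 of 28 settings, among them the removal of NC 1, NC 3, NC 5, CKD 2, CKD 5, CKD 6, SZ 1 or SZ 4 (adjusted p up to 0.118). On the TPM scale the CKD changes of Abcb6 and Abcb8 were -0.14 and -0.05, with adjusted p of at least 0.293 for the 3 genes. On the deposited scale, 6 of 13 tested iron-sulfur and heme partners fell and 1 rose in CKD, beside 26.0% and 24.4% of all genes. In SZ against CKD 4 rose, beside 4.16%. Fech, which inserts iron into heme, had 18.7 FPKM in NC, 12.5 in CKD and 16.1 in SZ and Nfs1, the cysteine desulfurase, 301 FPKM in NC, 157 in CKD and 222 in SZ, while Cpox rose by 0.41 (adjusted p = 0.00145).

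Abcb9, a lysosomal peptide transporter related to Tap1 and Tap2, fell by 0.63 (SE 0.11, adjusted p = 1.21e-04), from 2.31 to 1.13 FPKM, without overlap. Its lower level in SZ than NC (-0.31, adjusted p = 0.0489) lost its call in 17 of 27 settings, among them the removal of NC 1 to NC 5, CKD 4, CKD 6, SZ 2, SZ 3, SZ 5 or SZ 6 (adjusted p up to 0.114). Tap1 and Tap2, the ABC genes that feed peptides to class I molecules and that carry other symbols, rose. Tap1 had means of 3.94 FPKM in NC, 13.8 in CKD and 9.61 in SZ, a change of 1.55 (SE 0.21, adjusted p = 1.11e-05), and Tap2 6.77 FPKM in NC, 24.7 in CKD and 16.5 in SZ, a change of 1.67 (SE 0.20, adjusted p = 2.39e-06). With them, 7 of 8 tested antigen-loading partners rose, Psmb8, an immunoproteasome subunit, from 8.004 to 53.01 FPKM, and 2 fell in SZ. The macrophage markers rose in the same libraries, and their part was not tested.

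The 2 rows named Abcb1b are the P-glycoprotein genes of the table. Rodents have a pair of such genes, Abcb1a and Abcb1b, where humans have one, and both export a broad range of lipophilic drugs. On chromosome 4 of mRatBN7.2, minus strand, the wide row (ENSRNOG00000008012, matched in the table to the protein entry MDR1A_MOUSE) runs from 25158362 to 25442709 and the narrow row (ENSRNOG00000066042, matched to MDR1_RAT) from 25242798 to 25325199. The wide row spans 284 kb, contains all of the narrow row and covers 88.8% of the span of Abcb4, which runs from 25151953 to 25209202. RefSeq's gene order on GRCr8 is Crot, Abcb4, Abcb1b, Abcb1a, Rundc3b, and in the deposited table the upper end of the wide row lies next to Rundc3b, on the side where RefSeq has Abcb1a. By protein match and position the wide row is nearer to Abcb1a and the narrow row to Abcb1b, and no other evidence on this was available in the table. Because the rows overlap and the genes are alike, reads may have been divided between them or lost, and values of the 3 rows are uncertain to that extent.

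**Figure D4:**
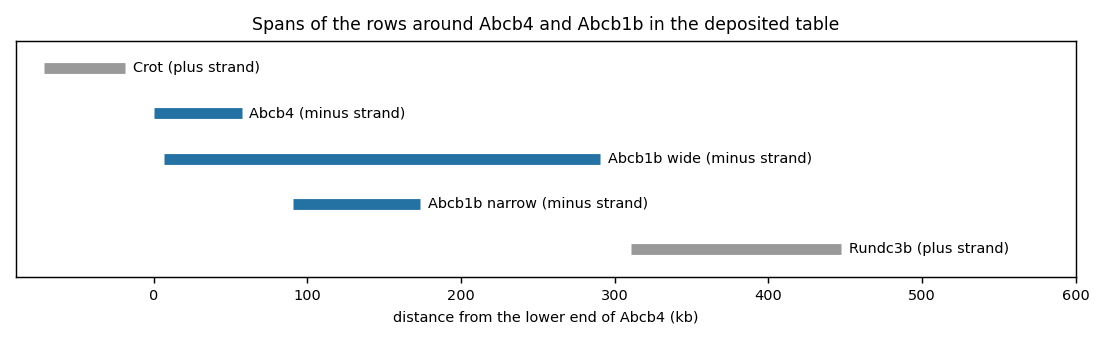
Spans of the rows around Abcb4 and Abcb1b along chromosome 4, as distance from the lower end of Abcb4 in kb. The wide Abcb1b row covers the narrow one whole and most of Abcb4, and its upper end is the nearest to Rundc3b.

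The RefSeq windows of 250 bases before the starts of Abcb1b (GRCr8, chr4:26280030-26280279, minus strand) and Abcb1a (GRCr8, chr4:26397649-26397898, minus strand) are printed because the 2 rows moved in opposite directions in CKD. Capitals mark the CCAAT box, read on either strand as CCAAT or ATTGG.
Abcb1b: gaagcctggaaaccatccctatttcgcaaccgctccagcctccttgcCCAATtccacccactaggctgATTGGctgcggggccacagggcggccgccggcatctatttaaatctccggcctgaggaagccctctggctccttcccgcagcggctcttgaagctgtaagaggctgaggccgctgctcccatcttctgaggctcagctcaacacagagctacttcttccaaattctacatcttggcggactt
Abcb1a: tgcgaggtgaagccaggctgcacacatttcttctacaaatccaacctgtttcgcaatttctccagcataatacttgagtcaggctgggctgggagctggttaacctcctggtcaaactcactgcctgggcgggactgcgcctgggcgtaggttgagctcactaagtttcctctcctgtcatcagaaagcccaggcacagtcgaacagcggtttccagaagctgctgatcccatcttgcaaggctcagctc
The Abcb1b window held 2 CCAAT boxes, on opposite strands, and the Abcb1a window held none. Counted back from the start without gaps, the windows shared the same base at 56 of 250 positions (22.4%). Their longest common run, 11 bases, began 11 bases before the Abcb1a start and 54 before the Abcb1b start. The windows were not aligned with gaps, so the count does not say how alike they are. A CCAAT box was present in 34.02% of all 33469 RefSeq windows of this length and in 14 of the 41 members matched by a single symbol. Neither window held the nuclear receptor hexamer AGGTCA or the antioxidant response core TGACNNNGC on either strand. Such matches describe letters only.

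The wide row had FPKM of 2.82, 3.79 and 7.15 in NC, 0.372, 1.45 and 2.65 in CKD, and 3.37, 4.64 and 7.11 in SZ. CKD lay below both other groups without overlap, and SZ and NC overlapped. It fell by 1.11 (SE 0.22, adjusted p = 4.44e-04) in CKD and was higher in SZ than in CKD by 1.27 (SE 0.22, adjusted p = 0.00380), with SZ against NC at 0.17 (adjusted p = 0.635). It was the only tested member whose SZ libraries all lay above the CKD libraries, which held for 0.628% of all genes tested, and no member had all SZ libraries below the CKD libraries, which held for 1.63%. The narrow row had 0.0506, 0.265 and 0.373 in NC, 1.87, 2.62 and 5.76 in CKD, and 1.36, 1.83 and 3.35 in SZ. NC lay below both other groups without overlap, and CKD and SZ overlapped. Its rise was 1.60 (SE 0.19, adjusted p = 2.06e-06) in CKD and 1.26 (SE 0.19, adjusted p = 1.34e-04) in SZ against NC, while SZ against CKD was -0.34 (adjusted p = 0.236). In recovered reads, the narrow row had 4 to 30 per NC library and 166 to 671 per CKD library, and the wide row 176 to 464 and 31 to 218. On those reads the CKD changes were 3.66 for the narrow row and -1.66 for the wide row.

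Within each library, the log2(FPKM + 1) of the narrow row minus that of the wide row averaged -2.03 (SD 0.41, n = 6) in NC, 0.67 (SD 0.74) in CKD and -0.94 (SD 0.14) in SZ. The narrow row was the higher in 5 of 6 CKD libraries, CKD 1 being the exception at -0.35, and in no NC or SZ library. In summed FPKM of both rows, its share was 1.27%, 6.01% and 11.7% in NC, 41.4%, 64.1% and 88.4% in CKD and 26.1%, 28.3% and 33.9% in SZ. CKD exceeded NC in this difference by 2.71, SZ lay under CKD by 1.62 and above NC by 1.09. With a pseudocount of 0.1 in place of 1 these became 4.71, 2.27 and 2.44 in size, in the same directions. Each of the 3 comparisons had an exact 2-sided permutation p of 0.0022, the smallest that 924 splits can give, and an adjusted p of 0.0022. The groups did not overlap in any of them, and all were called in the 23 alternative settings. The sum of both rows averaged 4.48 ± 1.49 FPKM in NC and 4.42 ± 1.48 in CKD, and 6.88 ± 2.12 in SZ (SD, n = 6).

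**Figure D5:**
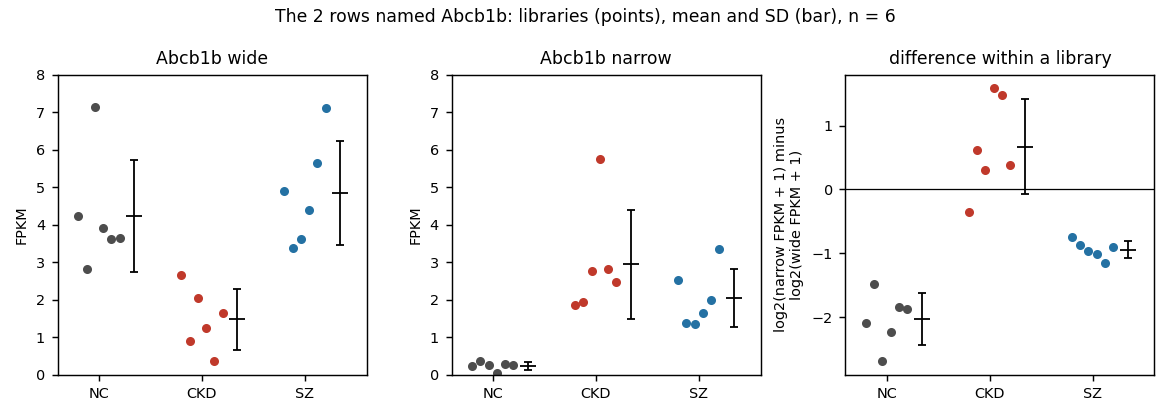
FPKM of the wide and of the narrow Abcb1b row in every library (points) with mean and SD (bar, n = 6), and the difference of their log2(FPKM + 1) within each library. The wide row is lowest in CKD, the narrow row lowest in NC, and their difference is above 0 in 5 CKD libraries only.

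Abcb4, the phosphatidylcholine exporter of bile canaliculi, lies next to the narrow row and, like it, rose in CKD. It had 0.255, 0.426 and 0.712 in NC, 1.45, 2.09 and 2.49 in CKD, and 1.25, 1.34 and 1.72 in SZ. NC was below both other groups without overlap. The change was 1.05 (SE 0.12, adjusted p = 9.67e-07) in CKD and 0.73 (SE 0.12, adjusted p = 2.25e-04) in SZ against NC, and on recovered reads it was 2.21 in CKD. SZ against CKD was -0.32 (adjusted p = 0.0753), called only without CKD 1 or CKD 2, on plain totals or after a correction for gene length. Abcb11, the bile salt export pump, was not tested; its means were 1.13 FPKM in NC, 0.351 in CKD and 0.348 in SZ.

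Subfamily C, the multidrug resistance proteins and sulfonylurea receptors, had the fewest calls among the subfamilies with 8 tested members. Abcc6, which releases ATP and is lost in pseudoxanthoma elasticum, had 4.29, 4.83 and 4.95 in NC, 1.42, 2.17 and 2.58 in CKD, and 2.14, 2.72 and 3.93 in SZ. NC was above both other groups without overlap, and CKD differed from it by -0.89 (SE 0.12, adjusted p = 9.60e-06) and SZ by -0.59 (SE 0.12, adjusted p = 0.00188). On the TPM scale the CKD difference was -0.55 and the SZ difference was not called (adjusted p = 0.0912). Abcc5, an exporter of cyclic nucleotides, had 1.29, 1.91 and 2.25 in NC, 2.03, 3.52 and 6.27 in CKD, and 1.87, 2.43 and 2.69 in SZ, and rose by 0.66 (SE 0.16, adjusted p = 0.00267) with overlap at CKD 1. SZ differed from CKD by -0.41 (adjusted p = 0.103), called only without CKD 1 (adjusted p = 0.0211) and after the correction for gene length.

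Abcc2, the brush border exporter of glutathione and glucuronide conjugates, was the only member called between SZ and CKD that was not called between CKD and NC. It had 5.85, 6.66 and 9.35 in NC, 1.77, 5.27 and 7.93 in CKD, and 6.07, 12.7 and 14.2 in SZ. All SZ libraries but SZ 3 were above every NC and CKD library. SZ exceeded CKD by 1.17 (SE 0.25, adjusted p = 0.00995) and this call was kept in all 28 settings. CKD differed from NC by -0.52 (adjusted p = 0.0938), called only without CKD 1 or CKD 6, and SZ from NC by 0.66 (adjusted p = 0.0709), called in 7 of 28 settings, the removal of SZ 3 or CKD 5 among them (adjusted p up to 0.0294 for these). Without CKD 2, CKD 5 and SZ 3 the SZ difference from CKD was 0.93 and that from NC 0.82.

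The RefSeq window before the Abcc2 start (GRCr8, chr1:252613625-252613874, plus strand) is printed because no other member showed that pattern. Capitals mark AGGTCA, its reverse complement TGACCT, and CCAAT read as ATTGG.
Abcc2: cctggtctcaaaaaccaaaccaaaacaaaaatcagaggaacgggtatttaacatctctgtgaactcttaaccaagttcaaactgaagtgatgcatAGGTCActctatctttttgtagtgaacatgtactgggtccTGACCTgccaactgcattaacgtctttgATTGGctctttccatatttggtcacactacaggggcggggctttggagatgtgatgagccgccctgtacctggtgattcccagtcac
It held 2 AGGTCA hexamers, on opposite strands, and 1 CCAAT box. AGGTCA was present in 14.1% of all windows and in 6 of the 41 matched members (Abca15, Abcb6, Abcb8, Abcc2, Abcd2 and Abcg4). TGACNNNGC was present in 10.1% of all windows and, among the members, in Abcg5 and Abcg8. The genes of nuclear receptors that read AGGTCA hexamers were also measured. Nr1h4, the bile acid receptor, had means of 36.4 FPKM in NC, 14.998 in CKD and 24.3 in SZ, and Nr1i2, the xenobiotic receptor, 6.99 FPKM in NC, 4.25 in CKD and 5.08 in SZ. Nfe2l2, which acts through the antioxidant response core, had 60.1 FPKM in NC, 63.5 in CKD and 65.7 in SZ and was called in no comparison. Of 13 tested regulators of ABC genes, 7 fell and 1 rose in CKD, beside 26.0% and 24.4% of all genes. In SZ against CKD 4 rose and 1 fell, beside 4.16% and 6.82%. Hnf4a, a regulator of proximal tubule genes, changed by -1.34 (adjusted p = 2.08e-05) in CKD.

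Abcc4, an apical exporter of urate and cyclic nucleotides and the most abundant C member, had 13.5, 16.5 and 23.3 in NC, 5.99, 14.1 and 21.6 in CKD, and 8.88, 20.6 and 27.9 in SZ. The groups overlapped and no comparison was called, the largest difference being 0.50 (adjusted p = 0.222) for SZ against CKD. Abcc10, known as multidrug resistance-associated protein 7, had 2.104, 2.49 and 2.85 in NC, 1.497, 2.11 and 2.31 in CKD, and 1.45, 2.44 and 3.06 in SZ. It was not called (-0.25, adjusted p = 0.0919 in CKD). Abcc1 and Abcc3 were not called either, although Abcc3 in SZ against NC stood at 0.36 (adjusted p = 0.0501) and was called in 12 of 27 settings. Abcc9, the sulfonylurea receptor of vascular potassium channels, had means of 3.24 FPKM in NC, 3.26 in CKD and 4.08 in SZ and no called change, while its pore partner Kcnj8 rose from 2.21 to 6.45 FPKM (1.21, adjusted p = 1.03e-05). Mural cell markers are on the list given beside Abca8a, and their part here was not tested. Abcc8, the receptor of the pancreatic channel, was under the limit for testing, at 0.934 FPKM in NC, 0.209 in CKD and 0.2395 in SZ.

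Tubular carriers for drug uptake and exchange fell, a list that holds basolateral uptake carriers and apical exchangers. Of 9 tested, 8 were lower in CKD and none higher, with a median of -1.97, and 4 were higher in SZ than CKD. Slc22a6, the basolateral organic anion carrier, had means of 549 FPKM in NC, 154 in CKD and 376 in SZ, and Slc47a1, an apical cation exchanger, 117 FPKM in NC, 55.2 in CKD and 86.7 in SZ. Among the ABC exporters that face the tubule lumen, Abcg2 changed by -1.05 and the wide Abcb1b row by -1.11 in CKD, both called. Abcc2 changed by -0.52 and Abcc4 by -0.45 in CKD, neither called. In SZ against CKD the same genes differed by 0.61, 1.27, 1.17 and 0.50, of which all but Abcc4 were called. The proximal tubule markers moved in the same directions, and their part was not tested. The narrow Abcb1b row, the other P-glycoprotein row, went the opposite way. It changed by 1.60 in CKD, which was called, and by -0.34 in SZ against CKD, which was not. The sum of both P-glycoprotein rows averaged 4.48 FPKM in NC, 4.42 in CKD and 6.88 in SZ.

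Abce1 and the subfamily F genes, which act in ribosome recycling and translation, were called in no comparison on the deposited scale. Abce1 had 16.9, 19.98 and 22.3 in NC, 12.7, 17.6 and 19.9 in CKD, and 14.9, 21.7 and 22.6 in SZ, a CKD change of -0.20 (adjusted p = 0.158) and an SZ difference from CKD of 0.25 (adjusted p = 0.163), called only without SZ 3. Abcf1 had 22.4, 23.7 and 24.8 in NC, 22.9, 24.3 and 31.1 in CKD, and 23.02, 24.3 and 30.4 in SZ and changed by 0.09 (adjusted p = 0.409) in CKD. Abcf2 had 20.9, 22.9 and 25.1 in NC, 18.8, 21.1 and 22.5 in CKD, and 20.7, 23.4 and 24.3 in SZ, with a CKD change of -0.12. Abcf3 had 14.7, 17.2 and 19.7 in NC, 13.4, 15.4 and 18.4 in CKD, and 14.3, 15.9 and 20.9 in SZ, with a CKD change of -0.12. On the TPM scale Abcf1, Abcf2 and Abcf3 were higher in CKD, by 0.52, 0.32 and 0.31, all called. The median of all genes moved to 0.34 on that scale. On the deposited scale, 2 of 9 tested partners rose and 2 fell in CKD, beside 24.4% and 26.0% of all genes. Pelo, which splits stalled ribosomes with Abce1, had means of 22.8 FPKM in NC, 33.2 in CKD and 22.4 in SZ.

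Between SZ and CKD, which differ by SZ-A, 6 of 37 tested members were higher in SZ and none was lower by limma. The 6 were Abca3, the wide Abcb1b row, Abcb6, Abcc2, Abcd3 and Abcg2. Of all genes, 11.0% were called, 4.16% higher and 6.82% lower. At an unadjusted p under 0.05, 11 were higher and 3 lower, beside 29.0% of all genes in either direction, and voom on the recovered reads gave 6 higher and none lower. On the TPM scale and on plain totals 4 of the 6 kept their call; on plain totals Abcb4 was lower. These rescalings moved the median of all genes to -0.12 and -0.10 for SZ against CKD. The count was 2 without CKD 5 or SZ 4, 3 without SZ 1 or SZ 2, 2 in a fit of CKD and SZ alone, and 10, of which 3 were lower, without CKD 1. Of the 6, the wide Abcb1b row and Abcc2 were called in every setting run for them.

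Of the 6, 5 had fallen in CKD against NC, Abcc2 being the other. These comparisons share the CKD libraries. The SZ mean lay between the NC and CKD means for 8 of the 9 members that rose with adenine, Abca1 being the exception, and for 12 of the 14 that fell, the exceptions being Abcb10 and the wide Abcb1b row. It did so for 6 of the 14 not called. The share of all genes with such an SZ mean is not given, and members were picked here by their CKD call. These counts therefore do not set ABC genes apart from others. Against NC, SZ was higher for Abca1, Abca8a, the narrow Abcb1b row, Abcb4 and Abcg1, beside 12.5% of all genes. It was lower for Abca4, Abcb9, Abcc6 and Abcg2, beside 8.61%, and 21.1% of all genes were called in either direction. At an unadjusted p under 0.05, 9 were higher and 7 lower, beside 34.2% of all genes. SZ and NC libraries did not overlap for 4 members that were higher and 2 that were lower, beside 8.86% and 5.7% of all genes. The narrow Abcb1b row and Abcb4 are among these 4 and among the calls higher than NC. Both passed the filter only through CKD and SZ libraries, so a difference from NC was built into their passing. On the TPM scale 10 were higher and 1 lower, and on plain totals 10 and 2, with the median of all genes at 0.22 and 0.15. The lower calls were 2 without NC 1, NC 3, NC 5, CKD 6, SZ 2, SZ 3, SZ 5 or SZ 6. In a fit of SZ and NC alone 8 were higher and 7 lower.

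The 16 members that were not tested were Abca5, Abca6, Abca9, Abca13, Abca14, Abca15, Abca17, Abcb5, Abcb11, Abcc8, Abcc12, Abcd2, Abcg3, Abcg4, Abcg5 and Abcg8. Abcb11 and Abcc8 reached 2.09 and 1.98 FPKM in their highest libraries, both in NC, and Abca9 1.05 in CKD; the others stayed under 1 in every library.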

How the data were processed

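Whole rat kidneys were profiled in 18 RNA-seq libraries, prepared with Trizol and a TruSeq kit per the labels. The authors deposited 1 table of FPKM per gene and library, made with HISAT2 2.0.5 on mRatBN7.2 per the submitters' processing notes. The sources used here do not give how reads were counted, with which strand setting or against which annotation. Within a gene, FPKM values were whole multiples of 1 read in 100% of cases within 0.01 of a read, which gave the recovered reads. The size each library was divided by was 0.862 to 1.26 times its read total, so the deposited scale differs from plain totals.

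Genes with FPKM of at least 1 in at least 6 libraries were tested with limma 3.58.1 in R 4.3.3 (empirical Bayes with intensity trend, 2-sided) on log2(FPKM + 1), with all 18 libraries in 1 model of 3 group means and Benjamini-Hochberg adjustment over 13851 genes. The limma and voom fits, but not the permutation test, were tried on simulated reads with a small part of the genes changed in CKD. Differences among libraries in scaling and in the slope on gene length were not simulated, and the outcome is not given here. The design meant to set Abcb1a against Abcb1b; since both rows are named Abcb1b, the narrow row was set against the wide row, by an exact permutation test over libraries. Values by library were given for both and, in each subfamily, for the up to 3 tested members with the smallest adjusted p in CKD against NC, the 1 with the smallest in SZ against CKD and the 1 with the highest mean; those given for Abca9 and Abca15 were chosen after their values were seen. Values of 2 called members and some partner genes are not reported here, though the counts include them. Members and gene lists were chosen with earlier results of these data known. RefSeq promoter windows (GRCr8) were matched for 41 of 51 unique symbols.

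Alternatives were a pseudocount of 0.1, no filter, a mean of at least 5 FPKM, TPM, plain totals, only the groups compared, limma's voom on recovered reads, a lowess correction for gene length, a replicate block, and leaving out each library or CKD 2, CKD 5 and SZ 3 together. Replicate numbers did not pair the libraries: correlations of same-numbered deviations ran from -0.36 to 0.23.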

Additional observations from a re-analysis of the deposited data

Results flagged for a closer look

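Of 75 groups of 6 libraries tested with Dixon's criterion, 6 had a library apart from the rest; chance alone gives about 1 in 20. SZ 3 was the lowest for Abcc2, at 6.07 FPKM with the next at 11.8, and for Abce1, at 14.9 with the next at 21.3, and the highest for Abcf1, at 30.4 with the next at 25.4. CKD 5 was the highest for Abcf1 in CKD, at 31.1 with the next at 25.2. Both libraries are among the 3 whose values fell with gene length. CKD 4 was the highest for the narrow Abcb1b row in CKD, at 5.76 with the next at 2.83, and NC 3 the highest for the wide row in NC, at 7.15 with the next at 4.22. The causes were not tested.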

How the results depend on the processing

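For 24 ABC genes followed over 28 alternative settings, 1873 of 1986 values stayed on their side of the threshold without a called reversal, 75 lost a call, 36 gained one and 2 reversed: on the TPM scale Abcf2 and Abcf3 were higher in CKD than NC, by 0.32 and 0.31. Over the 37 tested members, values called in neither fit changed sign 24 times for CKD against NC, 38 for SZ against CKD and 29 for SZ against NC. With a mean of at least 5 FPKM, which tests 20 members, 11 were called between CKD and NC (2 higher, 9 lower) and 2 between SZ and NC (2 higher, 0 lower). TPM gave 15 higher and 6 lower for CKD against NC and 10 and 1 for SZ against NC; plain totals gave 12 and 8, and 10 and 2, with 1 lower for SZ against CKD. Fits of only the groups compared gave 2 calls for SZ against CKD (2 higher) and 15 for SZ against NC (8 higher, 7 lower). The length correction gave 2 lower for SZ against CKD, voom 2 lower for SZ against NC, and leaving out CKD 2, CKD 5 and SZ 3 gave 8 higher for SZ against NC. Leaving out 1 library gave 21 to 24 calls for CKD against NC (8 to 9 higher, 12 to 15 lower), 2 to 10 for SZ against CKD (2 to 9 higher, 0 to 3 lower) and 6 to 13 for SZ against NC (4 to 7 higher, 2 to 6 lower). With the replicate block the counts were 21, 4 and 8; the numbers do not pair the libraries. Between the Abcb1b rows all 3 differences kept their call, at an adjusted p of at most 0.0313, the smallest the block allows. The cause of each change was not tested. In NC the narrow Abcb1b row had 4 to 30 reads a library, which limits its fold change.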
